A study of Mus musculus with 224 samples.

Results

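Potassium channel genes were described across 5 brain regions of mice exposed to ethanol vapor, ethanol drinking, both or neither. They are the prefrontal cortex (PFC), the hippocampus (HPC), the nucleus accumbens (NAC), the central amygdala (CeA) and the bed nucleus of the stria terminalis (BNST). The genes were taken by name. They were all genes whose symbol begins with Kcn in the annotation of the array, without Kcnma1, Kcnmb2, Kcnmb4, Kcnn1, Kcnn2 and Kcnn3 of the calcium-activated channels, Kcnj3, Kcnj6 and Kcnj9 of the G protein-gated channels, Kcne2 and the noncoding Kcnq1ot1. This gave 73 genes of 18193 with a probeset of their own, measured by 135 probesets of 45037. A probeset is the set of short probes that reads 1 stretch of a transcript. Each gene was represented in a region by its probeset with the highest mean signal. 34 genes had 1 probeset and 39 had more, up to 4, and the chosen probeset differed between regions for 4 genes. All 73 genes had a value in the PFC and NAC and 72 in each of the HPC, BNST and CeA, and no gene was dropped for a low signal.

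The samples were 224 arrays from male C57BL/6J mice bought at 10 weeks of age, 1 array for each region of a mouse. CIE Drinking mice inhaled ethanol vapor in chambers (chronic intermittent ethanol, CIE) for 16 h a day on 4 days of each of 4 cycles. They were injected with ethanol at 1.6 g/kg together with pyrazole at 1 mmol/kg, which slows ethanol breakdown. After 72 h of abstinence in each cycle they could choose between water and 15% ethanol for 2 h a day on 5 days, as they had for 6 weeks before the first cycle. CIE NonDrinking mice had the vapor and the injections but water alone to drink. Air Drinking mice had air in the chambers and the choice of ethanol, and Air NonDrinking mice had air and water and stayed ethanol-naive. Both air groups also received pyrazole, so that all groups share it. Tissue was collected on the day of the last drinking session, before access to ethanol. The paper states that drinking groups had then been abstinent for a shorter time than NonDrinking groups. Between drinking and NonDrinking mice, drinking and the time since the last ethanol therefore cannot be told apart. A group in a region held 8 to 12 arrays. Regions were normalized apart, which lets groups be tested within a region, whereas signals of different regions were described and not tested.

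In each region 6 comparisons of groups were made. Comparison 1 set CIE Drinking against Air Drinking, Comparison 2 CIE NonDrinking against Air NonDrinking, and Comparison 3 CIE Drinking against CIE NonDrinking. Comparison 4 set CIE Drinking against Air NonDrinking, Comparison 5 CIE NonDrinking against Air Drinking, and Comparison 6 Air Drinking against Air NonDrinking. They share groups and are not independent of each other. The interaction of vapor and drinking is the difference of Comparison 1 minus Comparison 2. It therefore also carries the difference in ethanol drunk between the groups of Comparison 1. A gene counted as called where its adjusted p in limma did not exceed 0.01, with Benjamini-Hochberg adjustment over all probesets of the region. All differences are on the log2 scale, the first-named group minus the other, with the standard error (SE), and levels are log2 signals.

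Potassium channels let potassium leave the cell and so return the membrane to rest after an action potential, set the resting potential and space out repeated firing. Kv channels open on depolarization. Kv1, Kv3, Kv4 and Kv7 subunits form them, Kv beta subunits, Kv channel interacting proteins (KChIPs) and KCNE proteins attach to them, and the so-called silent subunits change them without forming channels alone. Inward rectifiers and 2-pore leak channels hold the resting potential, and in astrocytes inward rectifiers also take up the potassium that neurons release. In brain tissue the RNA of a channel gene comes from neurons and glia together. In such bulk tissue, fewer cells of a type and less RNA per cell cannot be told apart.

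In ethanol-naive mice, brightness varied within families and between them. The position of a probeset is given as its percentile among all probesets of the region in Air NonDrinking mice. Brightness depends on the probes as well as on the RNA, so positions of different genes do not rank their transcripts. The median position of the 73 members was 60.3 in the PFC, and it lay between 56.8 in the BNST and 59.0 in the HPC for the other regions. Between 10 (PFC, BNST) and 13 (HPC) members stood above the 90th percentile, with 11 each for NAC and CeA. The 5 members with the highest mean position over the regions were Kcna1 at 96.8, Kcnk1 at 96.8, Kcnd2 at 96.6, Kcnab1 at 95.2 and Kcnq3 at 93.9. Kcna1 is an axonal Kv1 subunit, Kcnk1 a 2-pore leak channel, Kcnd2 the main Kv4 subunit of dendrites, Kcnab1 a Kv beta subunit and Kcnq3 a subunit of the M-current, a slow current that restrains repeated firing. All 5 were bright in every region, and their positions spanned at most 7.2 percentile points.

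**Figure D1:**
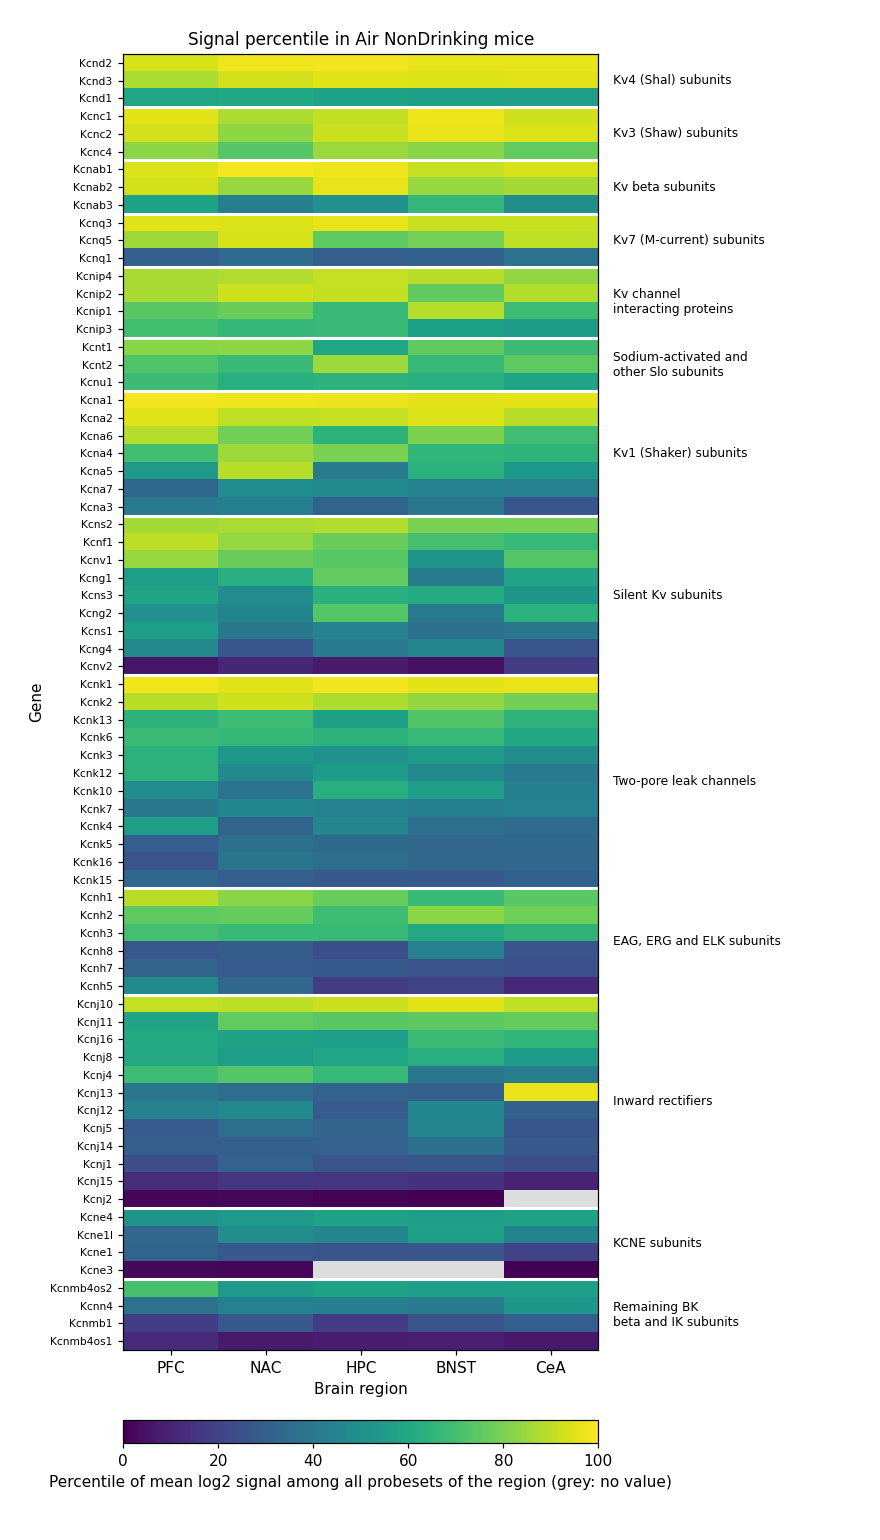
Signal percentile of each potassium channel gene (rows, grouped by family) in each brain region (columns) in Air NonDrinking mice, colored from 0 to 100, with grey where a gene had no value. Many rows keep a like color across the columns, whereas Kcnj13 is bright in the CeA alone and Kcna5 is brightest in the NAC.

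Within families the brightest probeset was often that of the same gene in every region. This was Kcna1 among the Kv1 subunits, Kcnd2 among the Kv4 subunits, Kcnq3 among the Kv7 subunits, Kcnab1 among the Kv beta subunits and Kcnk1 among the 2-pore channels. Among the Kv3 subunits, which let neurons fire fast, the brightest was Kcnc1 in the PFC, NAC and BNST (95.8, 87.7 and 97.5) and Kcnc2 in the HPC and CeA (91.8 and 94.4). Of the KChIPs, which tune Kv4 channels, Kcnip4 led in the PFC, HPC and BNST (87.0, 91.1 and 89.1) and Kcnip2 in the NAC and CeA (92.6 and 88.4). Kcnj10, the inward rectifier of astrocytes, led its family in the PFC, NAC, HPC and BNST (91.3, 90.2, 91.9 and 95.5). Of the EAG, ERG and ELK subunits Kcnh1 led in the PFC, NAC and HPC (89.1, 82.2 and 77.2) and Kcnh2 in the BNST and CeA (82.6 and 77.9). Of the silent subunits Kcnf1 led in the PFC (89.9) and Kcns2 in the other regions (NAC 87.4, HPC 88.4, BNST 79.7 and CeA 80.0). Of the Slo-type subunits outside the BK group Kcnt1, a sodium-activated channel, led in the PFC, NAC and BNST (82.3, 82.9 and 75.6) and Kcnt2 in the HPC and CeA (85.5 and 75.3). The KCNE proteins stayed near the middle, led by Kcne4 in the PFC, NAC, HPC and CeA (51.6, 53.6, 57.6 and 57.5) and by Kcne1l in the BNST (57.0). Kcnmb4os2, an RNA antisense to a BK subunit gene, was the brightest of the 4 remaining members in every region, between 53.6 in the NAC and 71.0 in the PFC.

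The 5 members whose position varied most over the regions were Kcnj13, Kcna5, Kcnh5, Kcng1 and Kcnj4. Kcnj13, an inward rectifier of transporting epithelia, stood at 97.2 in the CeA and between 30.3 (BNST) and 39.3 (PFC) elsewhere. Its group values are given although they were chosen after they had been seen. In the CeA its log2 signal ran from 7.52 to 13.46 over all arrays, with medians of 12.61 in CIE Drinking, 12.29 in Air Drinking, 12.81 in CIE NonDrinking and 12.47 in Air NonDrinking mice. The mean level of 9 choroid plexus markers, the list of which holds Kcnj13, likewise ran from 7.43 to 12.8 over the arrays of the CeA and stayed at or below 7.23 elsewhere. Choroid plexus is not part of the CeA, and Kcnj13 differed by up to 1.18 between group means there without being called in any comparison. The part of choroid plexus tissue in the Kcnj13 values was not tested. Kcna5, a Kv1 subunit, stood at 89.1 in the NAC against 63.9 in the BNST, 54.0 in the PFC, 53.4 in the CeA and 41.0 in the HPC. Positions of single arrays reached from 84.9 to 90.5 in the NAC, above the highest array of any other region (77.5, in the BNST). Kcnh5, an EAG channel, stood at 47.3 in the PFC and as low as 11.5 in the CeA, with the PFC arrays (45.1 to 48.8) clear of those of each other region, the highest of which was 38.7. Kcng1, a silent subunit, ranged from 41.6 in the BNST to 76.0 in the HPC. Kcnj4, an inward rectifier of forebrain neurons, ranged from 39.4 in the BNST to 73.7 in the NAC.

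By striatal markers the NAC could be told from the other regions, which overlapped each other. Mean levels of 8 striatal projection neuron markers were 11.49 to 12.48 in the NAC and lay between 8.34 and 11.2 on the arrays of the other regions. Regions were normalized apart, with a median probeset mean of 6.1 in the PFC, 7.03 in the NAC and 6.86 to 6.91 elsewhere. Marker levels of different regions, here and above, are therefore described only. They spread widely over arrays of the BNST (8.73 to 11.2), CeA (8.43 to 11.1) and PFC (8.34 to 10.05), and cortical excitatory neuron markers did so in the NAC (7.77 to 10.13). Arrays of a region correlated with a median r of 0.991 to 0.996, with the lowest array at 0.978, in the CeA. By quality weights that limma estimates from how far an array strays from its group, 19 arrays had a weight under 0.5, of which 5 were from the PFC, 6 from the NAC, 4 from the BNST and 4 from the CeA. They are called low-weight arrays, and values without them are given where a call changed. No gene of the series was a treatment target, so that there is none to check the labels against.

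Most calls among the members were in the PFC. There 4 members were called in Comparison 1, of 73, 5.48%, against 2.16% of all genes with 1 probeset each. In Comparison 3, 2 members were called (1.2% of all genes), in Comparison 6, 1 (1.32%), and for the interaction 8, against 3.04% of all genes. None was called in Comparisons 2, 4 and 5, in which 0.77%, 0.61% and 0.715% of all genes were, with 19, 20 and 7 members at an unadjusted p under 0.05 in limma. These made 26.0%, 27.4% and 9.59% of members, against 18.7%, 28.1% and 11.9% of all genes. The 0 of Comparison 2 became 1 or 2 under 5 of the alternatives (dim probesets left out, trend and robust variances, quantile normalization again, the mean of all probesets, low-weight arrays left out), and that of Comparison 5 became 3 with array quality weights and 2 without low-weight arrays. The share of all genes under these alternatives is not given here. In the NAC 1 member was called, in Comparison 4 (0.995% of all genes). In the CeA 2 were called in Comparison 3 (0.357%) and 1 in Comparison 4 (0.318%). No member was called in the HPC or BNST, whose background in Comparisons 1 and 4 was 0.399% and 1.45% in the HPC and 0.471% and 0.332% in the BNST, and in Comparison 3 of the BNST 0.0886%. The background was 0.066% and 0.011% in Comparisons 1 and 3 of the NAC and 0.0111% in Comparison 1 of the CeA. For the other comparisons and the interaction in these 4 regions it was 0.0%, and no member was called either. Where no member of the HPC was called in limma, 2 to 9 of 72 had an unadjusted p under 0.05, and in the BNST 3 to 33 of 72. In the HPC these made 2.78% to 12.5% of members, against 4.11% to 17.1% of all genes. The share of members there was below that of all genes everywhere but in Comparison 3. In the BNST the shares were 4.17% to 45.8% of members and 2.79% to 25.6% of all genes. Where none was called in the NAC and CeA, 0 to 19 and 3 to 13 had such a p. These made 0.0% to 26.0% of members in the NAC, against 3.03% to 19.2% of all genes. In the CeA they made 4.17% to 18.1%, against 4.44% to 14.0%. In all, 11 of the 73 genes were called by their brightest probeset in at least 1 region and comparison. The share of all genes called at least once is not given here, so this count cannot be set against it.

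**Figure D2:**
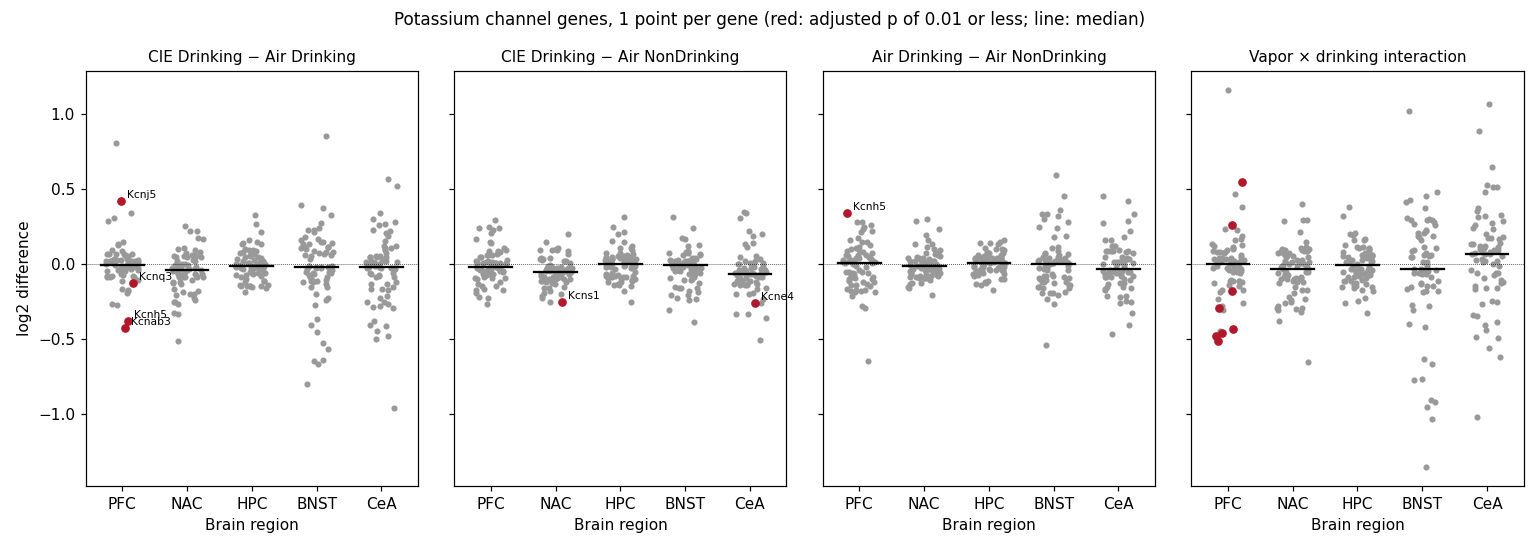
Log2 difference of each potassium channel gene (1 point per gene) by region in Comparisons 1, 4 and 6 and for the vapor by drinking interaction, with called genes in red and the median as a line. Medians lie near 0 in every panel, and all red points but Kcns1 in the NAC and Kcne4 in the CeA belong to the PFC.

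The members moved both ways in the PFC. Their median difference lay between -0.031 (Comparison 3) and 0.02 (Comparison 5) in the PFC, where that of all genes lay between -0.022 and 0.019. In the NAC more members leaned down than up. At an unadjusted p under 0.05 in limma there, 12 were lower and 3 higher in Comparison 1. In Comparison 3 these were 16 and 3, and in Comparison 4 they were 11 and 1. Both directions together made 20.5%, 26.0% and 16.4% of members, against 14.7%, 19.2% and 16.6% of all genes. Medians of all genes were also negative, at -0.017, -0.03 and -0.027, against -0.038, -0.05 and -0.051 for members. In Comparison 2 of the CeA 5 were lower and none higher, 6.94% against 9.91% of all genes. The median there was -0.097 against -0.015. How all genes split by direction is not given here. The size of the differences, as the median without sign, was close to that of all genes in Comparison 1 in the PFC (0.05 against 0.053). It was also close in Comparison 4 of the PFC (0.063 against 0.065). In all other comparisons, and for the interaction, the size was larger among members in every region. For the interaction it was 0.113 against 0.074 in the PFC and 0.18 against 0.082 in the BNST. It was 0.095 against 0.068 in the NAC, 0.08 against 0.06 in the HPC and 0.161 against 0.089 in the CeA. In Comparison 6 of the PFC, 34 of 73 members, 46.6%, had an unadjusted p under 0.05 against 25.5% of all genes, 16 with a positive and 18 with a negative difference. Kcnh5 alone of these passed the adjusted threshold. Among others, looked up after the fact, the adjusted p was 0.0116 for Kcnj16, 0.0141 for Kcnt1, 0.032 for Kcnq5 and 0.034 for Kcnip4.

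The members that fell in Comparison 1 of the PFC were Kcnab3, Kcnh5 and Kcnq3, of 3 Kv beta, 6 EAG, ERG and ELK and 3 Kv7 genes. Kcnab3 encodes a Kv beta subunit, a cytoplasmic protein that attaches to Kv1 channels and can speed their inactivation. Its log2 signal (lowest, median, highest) was 6.19, 6.58 and 6.71 in CIE Drinking mice and 6.79, 6.95 and 7.23 in Air Drinking mice, so that these groups did not overlap. In CIE NonDrinking mice it was 6.58, 6.87 and 7.22 and in Air NonDrinking mice 6.53, 6.88 and 7.06, which both overlap the other groups. Kcnab3 fell in Comparison 1 by 0.43 (SE 0.07, adjusted p = 2.8e-04, limma) and in Comparison 3 by 0.35 (SE 0.07, adjusted p = 0.0017), with all 12 CIE Drinking mice below the mean of the other group each time. Its interaction was -0.52 (SE 0.10, adjusted p = 0.00107). The difference in Comparison 4 was -0.26 and was not called (adjusted p = 0.023). These values come from 1 probeset. The other probeset of Kcnab3 gave -0.08 (SE 0.07) in Comparison 1, -0.10 in Comparison 3 and -0.11 for the interaction, none of them called, and the mean of both probesets gave -0.25 in Comparison 1 with an adjusted p of 0.0112, in Comparison 3 -0.23 (adjusted p = 0.0231) and for the interaction -0.31 (adjusted p = 0.0185), so that no call was left. The other Kv beta genes, Kcnab1 and Kcnab2, were not called in the PFC.

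Kcnh5 encodes an EAG subunit, a slow voltage-gated channel found mainly in brain. Its signal was 5.6, 5.84 and 5.95 in CIE Drinking and 5.75, 6.21 and 6.47 in Air Drinking mice, and 5.52, 5.85 and 6.39 in CIE NonDrinking and 5.68, 5.86 and 6.0 in Air NonDrinking mice. Air Drinking mice were thus higher than the other groups, with overlap, and medians of the other groups lay within 0.02 of each other. Kcnh5 fell in Comparison 1 by 0.38 (SE 0.07, adjusted p = 9.5e-04), rose in Comparison 6 by 0.34 (SE 0.07, adjusted p = 0.00426) and had an interaction of -0.43 (SE 0.10, adjusted p = 0.00521). The side of the change was shared by 12 of 12 CIE Drinking mice in Comparison 1 and by 10 of 11 Air Drinking mice in Comparison 6. Without the 5 PFC arrays of low quality weight the difference in Comparison 6 was 0.30 (adjusted p = 0.0569) and the interaction -0.39 (adjusted p = 0.0193), so that these calls were lost. The probeset is dim, at the 47.3rd percentile of the PFC, and it is the only one of Kcnh5.

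Kcnq3 encodes a pore subunit of the M-current. Its signal ran from 11 to 11.18 (median 11.12) in CIE Drinking, from 11.1 to 11.34 (median 11.22) in Air Drinking, from 11.09 to 11.34 (median 11.18) in CIE NonDrinking and from 11.03 to 11.23 (median 11.16) in Air NonDrinking mice, with the lowest median in CIE Drinking mice and overlap among all groups. Kcnq3 fell in Comparison 1 by 0.13 (SE 0.03, adjusted p = 0.00853), with 12 of 12 CIE Drinking mice below the Air Drinking mean, and had an interaction of -0.18 (SE 0.04, adjusted p = 0.00492). The change is small beside those of the other called genes. The call in Comparison 1 was lost with only the 2 groups compared (adjusted p = 0.0123), with the mean of its probesets (0.014) and without the low-weight arrays (0.0139). The other probeset of Kcnq3 gave -0.19 for the interaction (SE 0.07, adjusted p = 0.0782). Kcnq5, the other M-current gene of the brain among the members, had an interaction of -0.44 by its brightest probeset (adjusted p = 0.0116) and of -0.49 by a dimmer one (SE 0.10, adjusted p = 0.00215), which alone was called.

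Inward rectifiers moved both ways in the PFC. Kcnj5 encodes a G protein-gated channel subunit that opens when inhibitory transmitters act on their receptors. Its signal was 4.34, 4.7 and 5.07 in CIE Drinking, 4.1, 4.29 and 4.47 in Air Drinking, 4.01, 4.39 and 4.75 in CIE NonDrinking and 4.06, 4.39 and 4.88 in Air NonDrinking mice. CIE Drinking mice were highest, with overlap to each other group. Kcnj5 rose in Comparison 1 by 0.42 (SE 0.09, adjusted p = 0.00186) and in Comparison 3 by 0.37 (SE 0.08, adjusted p = 0.00576), in 12 of 12 CIE Drinking mice each time. Its interaction was 0.54 (SE 0.12, adjusted p = 0.00313). The probeset is dim, at the 28.7th percentile of the PFC, and the dimmer of the 2 probesets of Kcnj5 differed by 0.02 in Comparison 1 (SE 0.06, adjusted p = 0.893). The mean of both gave 0.22 in Comparison 1 (adjusted p = 0.00732), 0.17 in Comparison 3 (adjusted p = 0.0364, not called) and 0.30 for the interaction (adjusted p = 0.00621).

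Kcnj16 encodes a rectifier subunit that pairs with that of Kcnj10 in glia. Its signal was 6.96, 7.09 and 7.35 in CIE Drinking, 7.09, 7.39 and 7.66 in Air Drinking, 6.97, 7.31 and 7.62 in CIE NonDrinking and 6.8, 7.13 and 7.32 in Air NonDrinking mice. The mice that had either vapor or drinking were thus above those that had both or neither, with overlap. Its interaction was -0.48 (SE 0.10, adjusted p = 0.00133) from -0.27 in Comparison 1 (adjusted p = 0.0116) and 0.20 in Comparison 2 (adjusted p = 0.0645), neither called by itself. The other probeset of Kcnj16 gave -0.47 (SE 0.11, adjusted p = 0.00668), also called. Kcnj10 was not called in the PFC.

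Silent subunits and a Slo-type subunit made up the remaining calls for the interaction. Kcng2 and Kcnv1 encode silent Kv subunits, which alter Kv2 channels when they join them. The signal of Kcng2 was 5.81, 6.09 and 6.35 in CIE Drinking, 5.97, 6.32 and 6.68 in Air Drinking, 6.0, 6.31 and 6.58 in CIE NonDrinking and 5.81, 6.19 and 6.48 in Air NonDrinking mice, with an interaction of -0.46 (SE 0.11, adjusted p = 0.00698). Kcnv1 had 9.29, 9.46 and 9.66 in CIE Drinking, 9.39, 9.55 and 9.79 in Air Drinking, 9.4, 9.73 and 9.84 in CIE NonDrinking and 9.21, 9.45 and 9.58 in Air NonDrinking mice. For Kcnv1 the CIE NonDrinking mice were highest. Its interaction was -0.29 (SE 0.07, adjusted p = 0.00703), and its other probesets gave -0.30 (adjusted p = 0.00151) and -0.27 (adjusted p = 0.0205). Kcnu1 encodes a Slo-type channel known for its role in sperm. Its signal was 7.6, 7.83 and 7.95 in CIE Drinking, 7.52, 7.68 and 7.77 in Air Drinking, 7.53, 7.62 and 7.92 in CIE NonDrinking and 7.58, 7.8 and 7.96 in Air NonDrinking mice. Its interaction was 0.26 (SE 0.07, adjusted p = 0.00897), the reverse of the pattern of Kcnj16. Without the PFC arrays of low weight the interaction of Kcng2 was -0.43 (adjusted p = 0.0111) and that of Kcnv1 -0.27 (adjusted p = 0.0164), no longer called, and 5 members were called in place of 8.

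**Figure D3:**
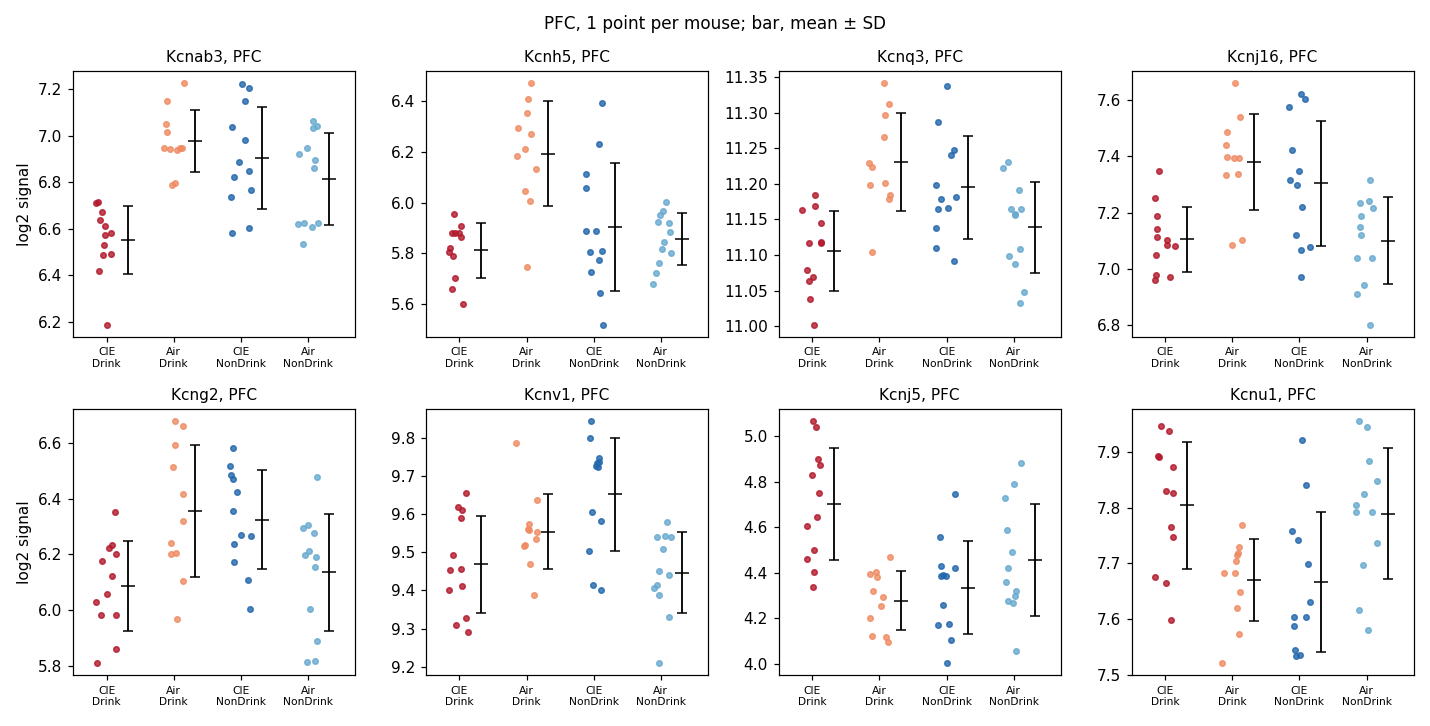
Log2 signal (vertical axis) of the 8 potassium channel genes called for the vapor by drinking interaction in the PFC, by group, 1 point per mouse, with the mean and SD as a bar. Kcnab3 does not overlap between CIE Drinking and Air Drinking mice, and the other 7 genes do.

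By family, the interaction was called in the PFC for 2 of 9 silent subunits, 2 of 12 inward rectifiers (1 positive and 1 negative) and 1 each of 6 EAG, ERG and ELK subunits, 3 Kv beta subunits, 3 Kv7 subunits and 3 Slo-type subunits. The brightest probesets of the 7 Kv1, 3 Kv3, 3 Kv4, 12 2-pore, 4 KCNE and 4 KChIP genes and of the 4 remaining members were not called there. Dimmer probesets of some of these genes were. Kcnip2 fell in Comparison 1 by 0.38 (SE 0.09, adjusted p = 0.00544) by a probeset at the 50.8th percentile, whereas its brightest one, at the 86.8th, differed by -0.05 (adjusted p = 0.722). Kcnc1 fell in Comparison 1 by 0.14 by a dimmer probeset (SE 0.03, adjusted p = 0.00721), which is not the one by which it rose in other regions. Over all probesets, 1.87% were called in Comparison 1, 1.26% in Comparison 2, 1.87% in Comparison 3, 1.4% in Comparison 6 and 2.92% for the interaction.

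In Comparison 2, vapor without drinking, dimmer probesets of 3 genes rose. Kcnv1 rose by 0.23 (SE 0.04, adjusted p = 0.00108) and Kcnip1 by 0.22 (SE 0.05, adjusted p = 0.00548). Kcnip4 rose by 0.36 (SE 0.08, adjusted p = 0.00521) by one probeset and by 0.23 (SE 0.05, adjusted p = 0.00616) by another. Their brightest probesets gave 0.21 for Kcnv1, 0.22 for Kcnip1 and 0.26 for Kcnip4, close in size, with adjusted p of 0.0109, 0.0268 and 0.0205. Kcnip4 also fell in Comparison 3 by 0.33 and by 0.24 by the same dimmer probesets, against -0.04 by its brightest. In Comparison 6, drinking alone, dimmer probesets of Kcnq5 and of Kcnd3, a Kv4 subunit, rose by 0.31 (SE 0.07, adjusted p = 0.00883) and 0.34 (SE 0.08, adjusted p = 0.00606). For the interaction, dimmer probesets of Kcnip2, Kcnj16, Kcnq5, Kcnip4, Kcnv1, Kcnc1 and Kcns3 were called, all with negative values, from -0.25 for Kcnc1 to -0.56 for Kcns3, another silent subunit.

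Promoters are shown for Kcnh5 and Kcnj5, which moved in opposite directions in Comparison 1 of the PFC. Each runs from 250 bases before to 50 after the start of the gene, 5′ to 3′ on the strand of the gene, from RefSeq (build GRCm38.p6), at chr12:75177283-75177582 (minus strand) for Kcnh5 and chr9:32344295-32344594 (minus strand) for Kcnj5. Capitals mark matches on either strand to GGGCGG, the GC box, and TGACG, the core of the cAMP response element. TATAAA was also searched.
Kcnh5: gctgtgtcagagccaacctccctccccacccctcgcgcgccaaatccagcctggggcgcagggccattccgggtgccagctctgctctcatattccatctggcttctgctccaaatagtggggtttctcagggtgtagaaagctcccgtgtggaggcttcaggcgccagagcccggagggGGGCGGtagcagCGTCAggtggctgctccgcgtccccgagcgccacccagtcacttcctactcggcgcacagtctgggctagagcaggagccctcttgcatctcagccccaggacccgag
Kcnj5: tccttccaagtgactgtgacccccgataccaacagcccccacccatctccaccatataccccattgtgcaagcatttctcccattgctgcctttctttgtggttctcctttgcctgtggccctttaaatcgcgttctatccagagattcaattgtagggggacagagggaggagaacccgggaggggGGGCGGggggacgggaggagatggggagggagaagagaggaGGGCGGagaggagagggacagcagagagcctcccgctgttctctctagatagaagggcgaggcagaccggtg
The Kcnh5 window held GGGCGG 1 time and TGACG 1 time. The Kcnj5 window held GGGCGG 2 times and no TGACG. Neither held TATAAA. Of 32851 such windows of all genes, 35.7% held GGGCGG, 20.8% TGACG and 13.6% TATAAA, so that the matches are common and describe the windows alone. Of the members, 54 had an entry, with 76 windows in all, and GGGCGG was found in at least 1 window for 35, TGACG for 12 and TATAAA for 4 of them. These are counts of genes, some with several windows, and cannot be set against the shares of single windows.

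Some cell type markers were also called in these comparisons or for the interaction in the PFC. Of 8 striatal markers, none was called in Comparison 1 (median difference 0.42) and 1, Ppp1r1b, for the interaction (median 0.71), and their mean level over arrays had a median of 8.79 in CIE Drinking (8.49 to 10.05), 8.51 in Air Drinking (8.43 to 9.91), 8.84 in CIE NonDrinking (8.34 to 9.91) and 9.24 in Air NonDrinking mice (8.46 to 9.77). Of 9 oligodendrocyte markers, 1 rose in Comparison 1 (median 0.30) and 3 had a positive interaction (median 0.46). Their mean level was 10.41 to 10.81 in CIE Drinking, 10.01 to 10.67 in Air Drinking, 10.03 to 10.72 in CIE NonDrinking and 10.23 to 10.9 in Air NonDrinking mice. Of 9 cortical excitatory neuron markers, the upper-layer markers Cux2 and Rorb fell in Comparison 1 by 0.67 and 0.50 and rose in Comparison 6 by 0.74 and 0.59, with list medians of -0.05 and 0.09 and a mean level of 9.93 to 10.15 in CIE Drinking, 9.98 to 10.22 in Air Drinking, 9.8 to 10.12 in CIE NonDrinking and 9.66 to 10.06 in Air NonDrinking mice. Of 10 thalamic markers, Rora fell in Comparison 1 by 0.23 and had an interaction of -0.34, and Slc17a6 rose in Comparison 6 by 0.54 and had an interaction of -0.74. The thalamic list had medians of 0.02 in Comparison 1, -0.02 in Comparison 6 and 0.02 for the interaction, with a mean level of 7.04 to 7.26 in CIE Drinking, 6.96 to 7.32 in Air Drinking, 6.95 to 7.27 in CIE NonDrinking and 6.95 to 7.31 in Air NonDrinking mice. Of 10 astrocyte markers, Gfap alone was called, with 0.89 in Comparison 1 (SE 0.17, adjusted p = 0.00125) and an interaction of 1.22, while the mean level of the list was 10.27 to 10.43 in CIE Drinking and 10.12 to 10.33 in Air Drinking mice. The part of these markers in the channel results was not tested.

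Of the proteins that place or join Kv channels, Cntnap2, Cntn2, Adam22 and Lgi1 were called in the PFC, at most 2 of them in 1 comparison or the interaction. Of 19 measured partner genes in the PFC, Cntnap2 fell in Comparison 1 by 0.25 (SE 0.05, adjusted p = 0.00126) and rose in Comparison 6 by 0.26 (SE 0.05, adjusted p = 0.00106), with an interaction of -0.37 (adjusted p = 4.7e-04). Cntnap2 encodes the protein that clusters Kv1 channels beside the nodes of myelinated axons. Cntn2, its partner at that site, had an interaction of 0.39 (SE 0.09, adjusted p = 0.00742), the opposite sign. Adam22 and Lgi1, whose proteins bind each other at synapses and axons, rose by 0.13 in Comparison 2 and by 0.13 in Comparison 5. Of 13 sodium and HCN channel genes, Fgf12, which encodes a protein that binds sodium channels, had an interaction of -0.25 (SE 0.06, adjusted p = 0.00771), and none was called in the 6 comparisons of the PFC, with 1 to 7 at an unadjusted p under 0.05 in limma. In these comparisons 11.9% to 28.1% of all genes had such a p. None of 3 genes of the sodium-potassium pump was called in any region or comparison, at unadjusted counts of 0 to 2, and none of the genes of these lists was called outside the PFC.

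In the NAC, Kcns1, a silent subunit of sensory and cortical neurons, fell in Comparison 4 by 0.25 (SE 0.05, adjusted p = 0.00138). Its signal was 5.93, 6.06 and 6.29 in CIE Drinking, 6.01, 6.2 and 6.42 in Air Drinking, 6.07, 6.3 and 6.56 in CIE NonDrinking and 6.22, 6.32 and 6.6 in Air NonDrinking mice. CIE Drinking mice were lowest, with 11 of 11 below the mean of the Air NonDrinking mice and a narrow overlap. The difference in Comparison 3 was -0.22 (adjusted p = 0.0334). The only probeset of Kcns1 is dim, at the 40.1st percentile of the NAC. The cortical excitatory neuron markers had a median difference of -0.18 in Comparison 4, with none of 9 called and array levels of 7.77 to 9.24 in CIE Drinking and 7.85 to 10.13 in Air NonDrinking mice. Their part in the change of Kcns1 was not tested. Kcng1 had a larger difference in Comparison 1 of the NAC, -0.51, but with SE 0.15 was not called (adjusted p = 0.0609).

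In the CeA, Kcne4 and Kcnk12 were called. Kcne4 encodes a KCNE protein that suppresses several Kv currents. Its signal was 6.89, 7.11 and 7.29 in CIE Drinking, 7.11, 7.32 and 7.49 in Air Drinking, 7.19, 7.35 and 7.6 in CIE NonDrinking and 7.12, 7.4 and 7.71 in Air NonDrinking mice. Kcne4 fell in Comparison 3 by 0.24 (SE 0.06, adjusted p = 0.00747) and in Comparison 4 by 0.26 (SE 0.06, adjusted p = 0.0079), in 12 of 12 CIE Drinking mice each time. Both calls were lost without the 4 CeA arrays of low weight, at -0.22 (adjusted p = 0.0173) and -0.24 (adjusted p = 0.0373), and with array quality weights, at -0.23 (adjusted p = 0.011) and -0.22 (adjusted p = 0.0241). Kcnk12 encodes a subunit of the 2-pore leak channels. The only probeset of Kcnk12 is dim, at the 41.2nd percentile of the CeA. Its signal was 6.22, 6.55 and 6.91 in CIE Drinking, 5.98, 6.33 and 6.57 in Air Drinking, 6.03, 6.2 and 6.41 in CIE NonDrinking and 5.82, 6.21 and 6.58 in Air NonDrinking mice. Kcnk12 rose in Comparison 3 by 0.38 (SE 0.08, adjusted p = 0.00354) in 12 of 12 CIE Drinking mice, and the difference in Comparison 4 was 0.34 (adjusted p = 0.0222). The choroid plexus markers had a median difference of -0.84 in Comparison 3 and 0.0 in Comparison 4, with none of 9 called, and array levels of 7.97 to 12.8 in CIE Drinking, 8.87 to 12.71 in CIE NonDrinking and 8.45 to 12.48 in Air NonDrinking mice. Their part in these calls was not tested.

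**Figure D4:**
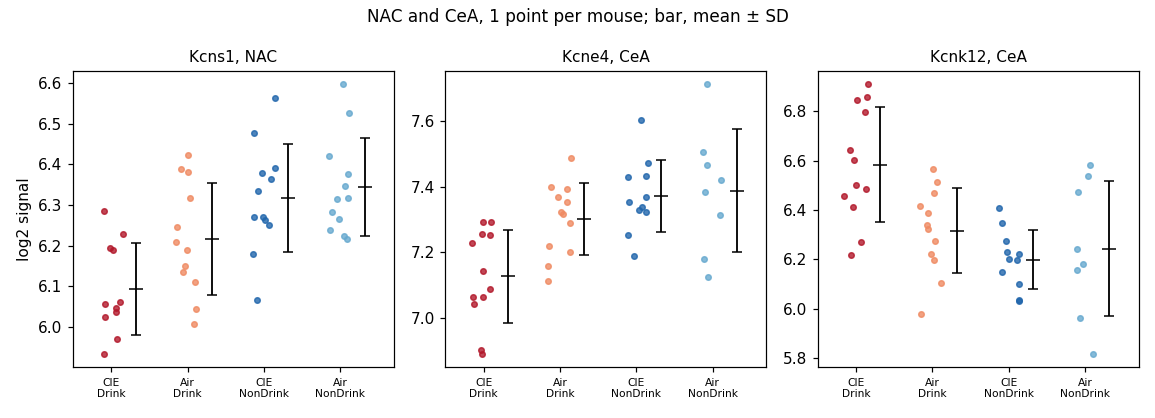
Log2 signal (vertical axis) of Kcns1 in the NAC and of Kcne4 and Kcnk12 in the CeA by group, 1 point per mouse, with the mean and SD as a bar. CIE Drinking mice are lowest for Kcns1 and Kcne4 and highest for Kcnk12, with overlap between groups.

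Outside the PFC the largest called changes were in dimmer probesets of Kcnd2 and Kcnc1, not in the brightest ones by which these genes stand above. Kcnd2 encodes the Kv4 subunit of the fast transient current of dendrites. By the dimmer probeset its signal in the HPC was 10.39, 10.6 and 10.88 in CIE Drinking, 9.12, 10.17 and 10.48 in Air Drinking, 9.7, 10.11 and 10.45 in CIE NonDrinking and 9.68, 9.86 and 10.07 in Air NonDrinking mice. The CIE Drinking mice did not overlap the Air NonDrinking mice. Kcnd2 rose by this probeset in Comparison 4 by 0.72 in the HPC (SE 0.13, adjusted p = 2.0e-04), by 0.61 in the NAC (SE 0.12, adjusted p = 4.4e-04) and by 0.49 in the BNST (SE 0.11, adjusted p = 0.00689). In Comparison 1 it rose by 0.65 in the HPC (SE 0.12, adjusted p = 0.00149) and by 0.55 in the NAC (SE 0.12, adjusted p = 0.00816). In the CeA the difference in Comparison 4 was 0.55 (SE 0.18, adjusted p = 0.0953) and in the PFC 0.08 (SE 0.08, adjusted p = 0.496). The brightest probeset of Kcnd2 gave -0.06 in the HPC (SE 0.04), 0.04 in the NAC (SE 0.05) and -0.05 in the BNST (SE 0.07) in Comparison 4, and neither of the remaining 2 probesets was called. The brightest stands at the 98.3rd percentile of the HPC, the one that rose at the 84.0th. Of all probesets, 1.23% and 3.63% were called in Comparisons 1 and 4 of the HPC, 0.282% and 2.71% in the NAC and 0.943% and 1.22% in the BNST.

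Kcnc1, which encodes a Kv3 subunit of fast-firing interneurons, also rose by a dimmer probeset. This probeset in the BNST had a signal of 10.3, 10.56 and 11.05 in CIE Drinking, 9.51, 10.09 and 10.51 in Air Drinking, 9.44, 10.25 and 10.67 in CIE NonDrinking and 9.84, 10.21 and 10.69 in Air NonDrinking mice. By it Kcnc1 rose in Comparison 1 of the BNST by 0.60 (SE 0.11, adjusted p = 0.00182), and in Comparison 4 by 0.36 in the HPC (SE 0.09, adjusted p = 0.00816) and by 0.31 in the NAC (SE 0.07, adjusted p = 0.00556). In Comparison 4 it gave 0.40 in the BNST (SE 0.12, adjusted p = 0.0521), 0.09 in the CeA (SE 0.16, adjusted p = 0.854) and 0.06 in the PFC (SE 0.08, adjusted p = 0.653), not called. The brightest probeset gave 0.27 in Comparison 1 of the BNST (adjusted p = 0.0441), and -0.00 in the HPC and 0.03 in the NAC in Comparison 4. Neither of the remaining 2 probesets of Kcnc1 was called outside the PFC. The one that fell in the PFC gave -0.21 in Comparison 1 of the BNST, and -0.02 in the HPC and -0.07 in the NAC in Comparison 4. The dimmest gave 0.0, 0.05 and -0.16 there. In Comparison 4 of the HPC a dimmer probeset of Kcnab2 also rose, by 0.27 (SE 0.06, adjusted p = 0.00272), and one of Kcnip4 fell, by 0.20 (SE 0.05, adjusted p = 0.00566), against 0.03 and -0.14 by the brightest. Which part of each transcript these probesets read was not examined here. Some glial markers also rose in Comparison 4. Of 9 microglial markers, 2 rose in the HPC (Cx3cr1 by 0.34 and Itgam by 0.48) and 2 in the NAC (Cx3cr1 by 0.23 and Itgam by 0.35), with list medians of 0.06 and 0.03. The mean level of that list was 9.22 to 9.58 in CIE Drinking and 9.16 to 9.58 in Air NonDrinking mice in the HPC, and 9.22 to 9.52 and 9.23 to 9.39 in the NAC. Of 9 oligodendrocyte markers, Gjc3 rose by 0.49 in the HPC and by 0.76 in the BNST, where list means were 9.52 to 10.15 against 9.71 to 10.14 and 11.15 to 11.59 against 11.08 to 11.4. Their part in the changes of Kcnd2 and Kcnc1 was not tested.

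**Figure D5:**
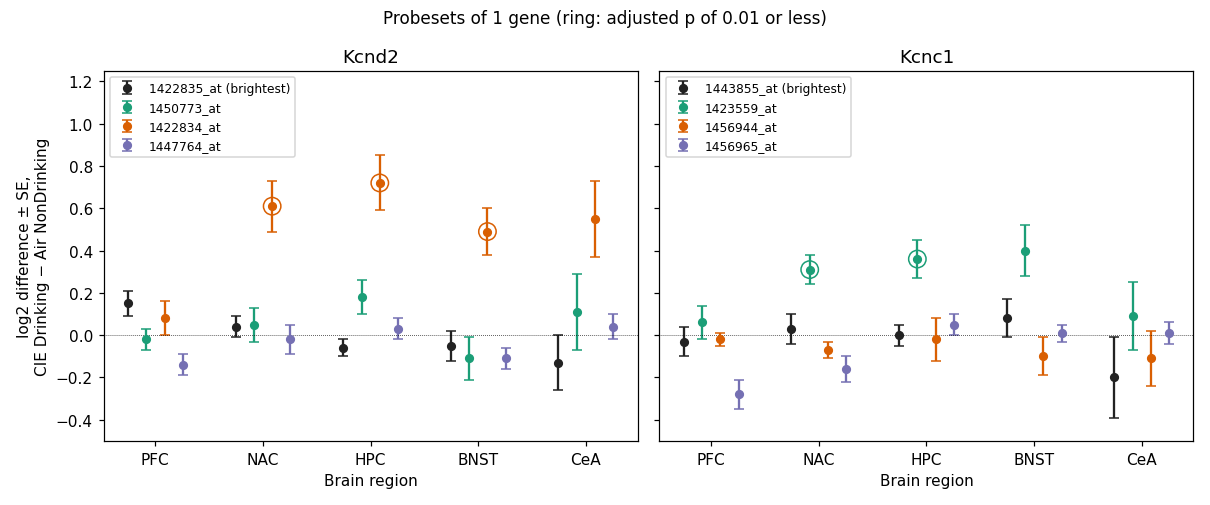
Log2 difference and SE in Comparison 4 for each probeset of Kcnd2 and Kcnc1 by region, with rings at an adjusted p of 0.01 or less. The third-brightest probeset of Kcnd2 lies between 0.49 and 0.72 in the NAC, HPC, BNST and CeA while the brightest stays between -0.13 and 0.15 in all 5 regions.

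The promoters of these genes are given in the same form, at chr6:21215096-21215395 (plus strand) for Kcnd2 and chr7:46396218-46396517 (plus strand) for Kcnc1, since 1 probeset of each rose and another did not.
Kcnd2: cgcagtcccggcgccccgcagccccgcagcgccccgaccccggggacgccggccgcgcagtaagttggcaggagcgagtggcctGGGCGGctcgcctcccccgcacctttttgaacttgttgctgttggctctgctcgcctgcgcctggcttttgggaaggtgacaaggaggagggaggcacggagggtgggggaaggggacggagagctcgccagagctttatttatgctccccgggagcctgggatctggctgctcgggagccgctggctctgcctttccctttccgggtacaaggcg
Kcnc1: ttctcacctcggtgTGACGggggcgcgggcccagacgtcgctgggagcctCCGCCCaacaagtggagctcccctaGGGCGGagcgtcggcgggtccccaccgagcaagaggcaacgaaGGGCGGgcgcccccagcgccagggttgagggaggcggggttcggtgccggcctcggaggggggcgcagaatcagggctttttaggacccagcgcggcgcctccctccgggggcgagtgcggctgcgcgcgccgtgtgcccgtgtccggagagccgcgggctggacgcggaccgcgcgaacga
The Kcnd2 window held GGGCGG 1 time and no TGACG, and the Kcnc1 window held GGGCGG 3 times and TGACG 1 time, both strands counted. Neither held TATAAA.

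The BNST had no called member by the brightest probesets, although 27 of 72 members, 37.5%, had an unadjusted p under 0.05 in Comparison 1 (24.5% of all genes) and 33, or 45.8%, for the interaction (25.6%). The members named here were chosen after their values were seen. Those with the most negative differences in Comparison 1 were Kcna5 at -0.80 (SE 0.29, adjusted p = 0.0866), Kcnv1 at -0.67 (SE 0.22, adjusted p = 0.0553), Kcnq5 at -0.64 (SE 0.22, adjusted p = 0.0642), Kcnip2 at -0.64 (SE 0.24, adjusted p = 0.0976), Kcnf1 at -0.56 (SE 0.18, adjusted p = 0.0491) and Kcnab1 at -0.53 (SE 0.18, adjusted p = 0.077). The most positive were Kcng4 at 0.85 (SE 0.26, adjusted p = 0.0472), Kcnc4 at 0.39 (SE 0.12, adjusted p = 0.0397), Kcns3 at 0.37 (SE 0.11, adjusted p = 0.0461) and Kcnab3 at 0.32 (SE 0.10, adjusted p = 0.05). None of these met the threshold of 0.01. The brightest probeset of Kcnab3 in the BNST is not that of the PFC. It is the one that gave -0.08 in Comparison 1 of the PFC (SE 0.07), where it was not called. With array quality weights, which give noisy arrays less say, 19 members were called in Comparison 1 and 15 for the interaction. Without the 4 BNST arrays whose weight was under 0.5, 10 and 11 were called. The share of all genes called under these settings is not given here, so these counts cannot be set against it.

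Groups of the BNST overlapped widely for these genes. Kcnip2 had a signal of 8.18, 8.49 and 10.14 in CIE Drinking, 8.09, 9.6 and 10.16 in Air Drinking, 8.67, 9.24 and 10.22 in CIE NonDrinking and 8.15, 8.78 and 9.94 in Air NonDrinking mice. Kcna5 had 6.95, 7.63 and 9.48 in CIE Drinking, 7.28, 8.78 and 9.63 in Air Drinking, 7.67, 8.32 and 9.58 in CIE NonDrinking and 6.8, 7.74 and 9.19 in Air NonDrinking mice. For both, the Air Drinking mice had the highest median and the CIE Drinking mice the lowest. The striatal markers were spread in the same way, with a mean level of 8.81 to 11.09 (median 9.12) in CIE Drinking, 9.02 to 11.14 (median 10.32) in Air Drinking, 9.3 to 11.2 (median 9.87) in CIE NonDrinking and 8.73 to 10.82 (median 9.62) in Air NonDrinking mice. All 8 of them had an unadjusted p under 0.05 in Comparison 1, where 24.5% of all genes did, with a median of -0.62, and none was called. The part of striatal tissue in the BNST values was not tested.

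The differences of Comparisons 1 and 4 were compared between the PFC and each other region. Over 71 genes with 1 probeset in all regions, the difference of Comparison 1 between the PFC and the CeA was called for 6 (4.22% of all genes) and between the PFC and the BNST for 3 (2.34%). None was called against the NAC (0.541%) or HPC (1.43%), with 5 and 6 members at an unadjusted p under 0.05 in limma. For Comparison 4 none was called against the NAC (0.0614%), HPC (2.47%), BNST (0.34%) or CeA (1.56%), where 3, 4, 4 and 10 members had an unadjusted p below 0.05. The share of all genes with such a p is not given here for these differences between regions. Kcnj5 differed from both regions. Its Comparison 1 was 0.42 in the PFC, -0.38 in the CeA (SE 0.17) and -0.24 in the BNST (SE 0.12), and the PFC was higher by 0.80 than the CeA (SE 0.17, adjusted p = 4.7e-04) and by 0.66 than the BNST (SE 0.17, adjusted p = 0.00667). In the CeA, Kcnj5 had a signal of 4.76, 5.1 and 6.51 in CIE Drinking and 5.04, 5.51 and 6.62 in Air Drinking mice.

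The other members that differed between PFC and CeA were Kcng2, Kcnk13, Kcnu1, Kcna5 and Kcne1l. Kcng2 was -0.27 in the PFC and 0.30 in the CeA, a difference of -0.57 (SE 0.12, adjusted p = 6.7e-04). With array weights it was -0.37 (adjusted p = 0.0162) and without low-weight arrays -0.43 (adjusted p = 0.0107), not called. Kcnk13, a 2-pore channel of microglia, was 0.34 and -0.41, a difference of 0.75 (SE 0.17, adjusted p = 0.00161). Kcnu1 was 0.13 and -0.25, a difference of 0.39 (SE 0.10, adjusted p = 0.0037). Kcna5 was 0.30 and -0.96, a difference of 1.26 (SE 0.34, adjusted p = 0.00694), with CeA signals of 5.54, 6.39 and 8.59 in CIE Drinking and 6.45, 7.55 and 9.34 in Air Drinking mice. Kcne1l, a KCNE protein, was 0.07 and -0.50, a difference of 0.57 (SE 0.16, adjusted p = 0.00981), which was lost without low-weight arrays (adjusted p = 0.0115). In Comparison 1 of the CeA none of these 5 was called by itself, and in the PFC none either.

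Between PFC and BNST, Kcnab1 and Kcng4 differed beside Kcnj5. Kcnab1 was 0.15 in the PFC and -0.53 in the BNST, a difference of 0.67 (SE 0.17, adjusted p = 0.00466). Its signal in the BNST was 10.12, 10.4 and 11.68 in CIE Drinking and 10.19, 11.14 and 11.78 in Air Drinking mice, and in the PFC it reached from 10.99 to 11.34 (median 11.03) against 10.75 to 11.31. Kcng4, a silent subunit, was 0.01 in the PFC and 0.85 in the BNST, a difference of -0.84 (SE 0.22, adjusted p = 0.00848). With the arrays of a mouse tied together by its number as a block, the same 6 and 3 members were called. The count against the BNST rose from 3 to 18 with array quality weights and to 10 without low-weight arrays, and that against the CeA went from 6 to 2 with dim probesets left out. The share of all genes under these settings is not given here. In Comparison 1 the striatal markers had medians of 0.42 (PFC), -0.62 (BNST) and -0.48 (CeA). Their part in these differences was not tested.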

How the data were processed

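Gene expression on Affymetrix mouse arrays was read from the log2 values deposited by the authors. They had corrected background and summarized probes with RMA, normalized each region separately by quantiles, removed outlying arrays and adjusted for hybridization batch with ComBat. Batch was not used here, so no fit takes account of that adjustment. Probesets were named by the platform annotation, and 34945 had a single symbol. Precision is limited by how many arrays a group holds. In limma 3.58.1 (R 4.3.3) each region was fitted over all probesets with 1 mean per group, with two-sided tests and Benjamini-Hochberg adjustment. Regions were compared in a fit over 43893 probesets measured in all of them. Arrays of a region share no mouse number between groups. The arrays of 1 mouse number in different regions correlated at 0.0146 over probesets after the group means (duplicateCorrelation, statmod 1.5.0), and blocking on mouse number is an alternative. The fit was tested on simulated data. Named genes are all called members of a comparison up to 12 (above that 6 in each direction), the 6 with the smallest adjusted p per region pair, the brightest of each family in each region, the 5 with the highest and the 5 with the widest range of position, and called list genes up to 6 a comparison. Members, gene lists and rules were chosen with earlier results of these data known. Alternatives covered dim probesets, variance and weight settings, normalization, probesets averaged per gene, fewer groups and the threshold. Leaving out 19 arrays with a quality weight under 0.5 was chosen after seeing the data.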

Additional observations from a re-analysis of the deposited data

Results flagged for a closer look

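The difference of CIE minus Air mice was not the same in drinking and non-drinking mice of the PFC for 8 members, by the interaction in limma. On the log2 scale these were Kcnab3 (-0.52), Kcnj16 (-0.48), Kcng2 (-0.46), Kcnh5 (-0.43), Kcnv1 (-0.29), Kcnq3 (-0.18), Kcnu1 (0.26) and Kcnj5 (0.54). The difference of CIE Drinking minus Air Drinking mice was not the same in the PFC and CeA for Kcnj5 (0.80), Kcng2 (-0.57), Kcnk13 (0.75), Kcnu1 (0.39), Kcna5 (1.26) and Kcne1l (0.57). Between the PFC and BNST this held for Kcnab1 (0.67), Kcnj5 (0.66) and Kcng4 (-0.84). Values are those of the PFC minus those of the other region in the fit over all regions. Kcnj5, Kcng2 and Kcnu1 stand in both sets. In 11 groups of 8 to 10 arrays of the genes named, Dixon's test found 0 arrays standing apart, and larger groups were not tested.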

How the results depend on the processing

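With dim probesets left out, 2 members were called in Comparison 2 of the PFC, 1 in Comparison 3 and 2 in Comparison 6, 0 in Comparison 4 of the NAC, 1 in Comparison 3 of the CeA, and against the CeA 2 for Comparison 1 and 1 for Comparison 4. Dim genes such as Kcnh5 and Kcnj5 in the PFC, Kcns1 in the NAC and Kcnk12 in the CeA are then not tested. Trend and robust variances gave 2 and quantile normalization again 1 in Comparison 2 of the PFC, and only the 2 groups compared gave 0 in Comparison 4 of the CeA. The mean of all probesets gave 2, 0 and 2 in Comparisons 2, 3 and 6 of the PFC, 1 in Comparison 1 of the BNST, and 1 and 0 in Comparisons 3 and 4 of the CeA. Array quality weights gave 7, 4, 3 and 3 in Comparisons 1, 3, 5 and 6 of the PFC, 2 in Comparison 4 of the HPC and of the CeA, 19 in Comparison 1 and 15 for the interaction in the BNST. Between the PFC and other regions they gave 1 (NAC), 2 (HPC) and 18 (BNST) for Comparison 1, and 2 (HPC) and 3 (CeA) for Comparison 4. Leaving out arrays of low weight, chosen after seeing the data, gave 2, 2 and 0 in Comparisons 2, 5 and 6 and 5 for the interaction in the PFC, 10, 2 and 11 in Comparisons 1 and 3 and for the interaction in the BNST, and 1 and 0 in Comparisons 3 and 4 of the CeA. Between regions it gave 1 (HPC) and 10 (BNST) for Comparison 1 and 1 each (HPC, CeA) for Comparison 4. At an adjusted p of 0.05, Comparisons 1 to 4 and 6 of the PFC had 8, 7, 4, 5 and 7 members and Comparison 5 had 4, Comparisons 3 and 4 of the NAC 2 and 3, Comparison 4 of the HPC 1, Comparison 1 and the interaction of the BNST 7 and 1, and Comparison 4 of the CeA 2. At that threshold the PFC differed for Comparison 1 in 1 (NAC), 1 (HPC), 8 (BNST) and 11 (CeA) members and for Comparison 4 in 1 (HPC), 1 (BNST) and 3 (CeA). The share of all genes called under each of these settings is not given here. The counts thus show how calls of members shifted and cannot be set against all genes. The cause of these shifts was not tested. With mouse number as a replicate block, the counts between regions stayed at 3 for the BNST and 6 for the CeA, and at 0 for the other pairs. No named gene changed direction under any alternative run.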
